A study of Mus musculus with 9 samples.

Results

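The tripartite motif (Trim) genes were followed in mouse bone marrow-derived macrophages (BMDMs) across 3 treatments. A gene was taken as a member when its symbol in the array's annotation was Trim followed by a digit, and it was read from its brightest probe set among those annotated to that gene alone. This gave 58 Trim genes of 18193 genes on the array, covered by 111 probe sets, with more than 1 probe set for 31 of the genes. Of these genes, 7 rose when tenascin C (TNC) was added and the same 7 were lower when TNC was added after a Toll-like receptor 4 (TLR4) inhibitor. They were Trim30d, Trim30a, Trim21, Trim13, Trim14, Trim34a and Trim26. An eighth gene, Trim16, was higher with the inhibitor than with TNC and vehicle.

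BMDMs are macrophages grown from bone marrow progenitors with macrophage colony-stimulating factor. The marrow came from BALB/c mice of 8 to 10 weeks and was cultured for 7 days, and the cells then spent a night in 1% serum. For the untreated group the labels name no addition. The TNC + vehicle group received TNC, a glycoprotein of the extracellular matrix, as recombinant protein at 2 µg/ml for 6 h, after 1 h in 0.1% DMSO. The TNC + TLR4i group had 3 µM TAK-242, which blocks signalling from the intracellular part of TLR4, for 1 h before the same TNC treatment. Each group had 3 arrays, and no group with vehicle alone or inhibitor alone was analysed here, so TNC and vehicle cannot be told apart in the contrast with untreated cells. Arrays within a group are labelled as biological replicates, without mention of separate mice. The p-values therefore measure only the spread between these samples. The marrow-derived cells carried macrophage markers at high signal on average, with all 10 listed markers measured and a mean log2 signal of 12.0 to 12.5 on each array. Mertk was the dimmest, with a mean of 8.84 in untreated cells.

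TRIM proteins are built from a RING finger, B-boxes and a coiled coil, followed in most members by a further domain that binds the target. The RING finger makes most of them ubiquitin ligases. In macrophages the family is known for antiviral restriction and for tuning the signalling of pattern recognition receptors. Several members are interferon-induced genes, switched on through an interferon-stimulated response element, and TLR4 can start interferon production through its TRIF adaptor.

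The sequence around the start of each gene was read as a description, and its part in the expression values was not tested. RefSeq windows of 300 bases on GRCm38.p6, from 250 before to 50 after an annotated start, were at hand for 47 of the 58 genes. The build is that of the C57BL/6J reference, and the cells were BALB/c. The core letters of the interferon-stimulated response element, GAAANNGAAA on either strand, stood in the windows of 1079 of 27025 genes (3.99%) and of 9 of the 47 Trim genes (19.1%). Of the 7 Trim genes that rose with TNC, 6 had a window and 5 of these held the letters (83.3%). Of the other Trim genes, 4 of 41 held them (9.76%). Near copies among these windows, described below, were counted as separate genes in both shares. The stretches of the 5 genes are shown 5′ to 3′ on the strand of the gene, because they carry these letters beside the genes with the changes described here. Capitals mark each match, and adjoining matches overlap.
Trim30d (chr7:104507836-104507935, minus strand): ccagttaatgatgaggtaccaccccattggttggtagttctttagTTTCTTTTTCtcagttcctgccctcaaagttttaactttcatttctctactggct
Trim30a (chr7:104465175-104465274, minus strand): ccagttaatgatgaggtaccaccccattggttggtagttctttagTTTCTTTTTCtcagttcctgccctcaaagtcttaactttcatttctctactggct
Trim21 (chr7:102565453-102565552, minus strand): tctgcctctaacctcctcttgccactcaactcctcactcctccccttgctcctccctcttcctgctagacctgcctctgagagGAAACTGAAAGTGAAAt
Trim34a (chr7:104244387-104244486, plus strand): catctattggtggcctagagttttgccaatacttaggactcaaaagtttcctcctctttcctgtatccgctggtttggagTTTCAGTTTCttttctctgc
Trim26 (chr17:36836944-36837043, plus strand): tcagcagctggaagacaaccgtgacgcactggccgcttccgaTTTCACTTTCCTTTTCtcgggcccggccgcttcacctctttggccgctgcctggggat
The stretches of Trim30d and Trim30a were the same at 99 of 100 positions, and their matches began 41 and 36 bases before the start. Trim30a has another annotated start, whose window held 1 match just after it. The match of Trim26 lay farther upstream, with the first of 2 overlapping matches 160 bases before the start, and the matches of Trim21 and Trim34a lay just after it. Trim13 had no match in its windows, which says only that these letters are not there. The letters of a gamma-activated site, TTCNNNGAA, were in 9.55% of all genes' windows and in 4 of the 47 Trim windows, none of them of a gene that rose. The NF-kB consensus, searched on both strands, was in 5.14% of all genes and in 1 of the 47.

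Log2 signals below are robust multiarray average (RMA) values, which have a floor at low signal, so the fold of a dim gene is understated. Differences are first minus second group, with the standard error (SE) of the limma fit. Calls needed an adjusted p below 0.05 together with a difference of 1.5-fold or more, which is 0.585 on the log2 scale. Signals of different probe sets are not amounts that can be set against each other, and in bulk RNA fewer cells of a type and less RNA per cell cannot be told apart. The TNC + vehicle arrays stand in both of the first 2 comparisons, so a fall with inhibitor is not independent of a rise with TNC.

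With TNC + vehicle against untreated cells, 7 of the 58 Trim genes were called higher (12.1%) and 0 lower. Among all 18193 genes, the higher calls came to 3.74%, the lower to 4.05% and both to 7.78%. In the limma fit, 11 Trim genes were higher and 14 lower when p was below 0.05 without adjustment. With no minimum fold, 9 higher and 10 lower Trim genes passed the adjusted p, as did 28.1% of all genes. The median Trim difference was 0.02, beside 0.01 over all genes. The groups did not overlap for 27 Trim genes (46.6%), near the 42.3% of all genes. All 7 genes called were among the 35 Trim genes with a mean above the median of all values (6.73), where 20% were called higher beside 5.93% of the 11080 such genes. The 23 dimmer Trim genes held no call in any comparison.

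**Figure D1:**
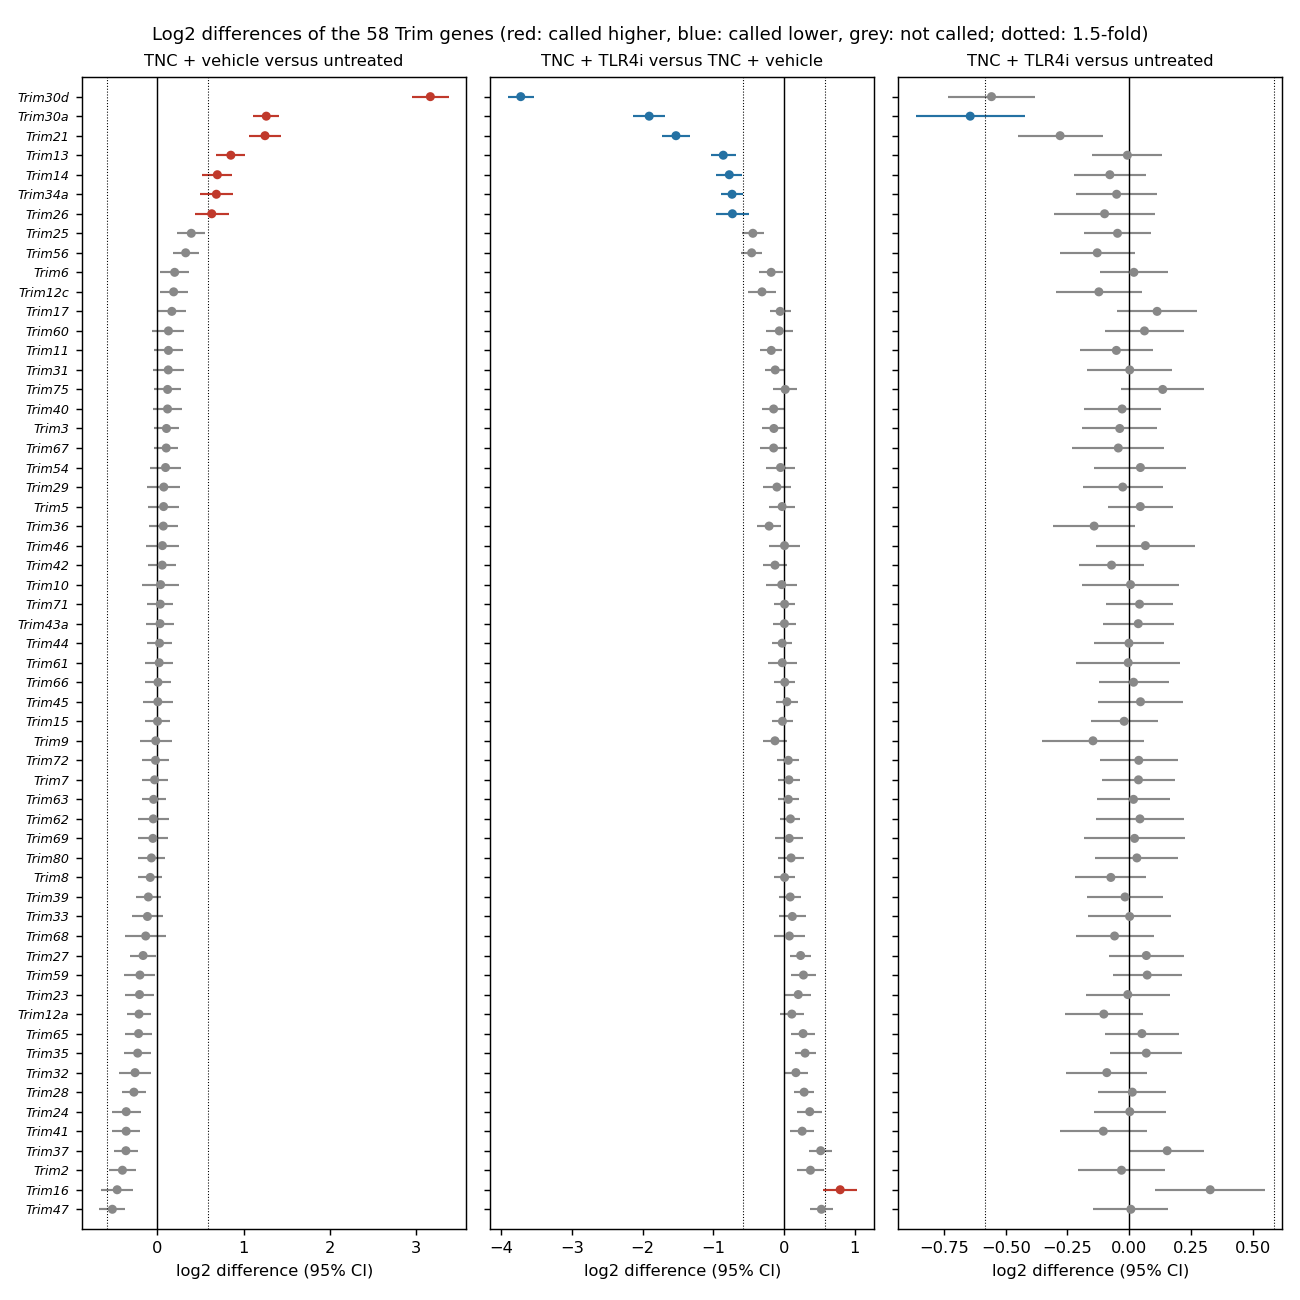
Log2 difference (x axis, a different scale in each panel) with its 95% confidence interval for each of the 58 Trim genes (rows, in the order of the first panel), in TNC + vehicle versus untreated, TNC + TLR4i versus TNC + vehicle and TNC + TLR4i versus untreated, with 3 arrays a group. Dotted lines mark 1.5-fold; 7 genes are red in the first panel, the same 7 are blue in the second with Trim16 red, and 1 gene is blue in the third.

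The largest difference in the family was that of Trim30d, a PRY-SPRY member that lies next to Trim30a on chromosome 7. Its log2 signals were 7.47, 7.77 and 7.54 in untreated cells, 10.60, 10.76 and 10.92 with TNC + vehicle, and 7.01, 7.12 and 6.99 with TNC + TLR4i. Every TNC + vehicle array was far above the other 6 arrays, and every TNC + TLR4i array was below every untreated one. Trim30d rose by 3.17 ± 0.10 (SE) on the log2 scale with TNC, which is 8.97-fold (adjusted p = 2.5e-09). It fell by 3.72 ± 0.09 with inhibitor, which is 13.2-fold (adjusted p = 5.38e-11). A second, dimmer probe set gave log2 differences of 3.02 and -3.27 in these comparisons.

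Trim30a is known to promote the loss of TAB2 and TAB3, adaptors between TLR signalling and NF-kB. Its log2 signals were 11.10, 11.23 and 11.27 in untreated cells, 12.45, 12.50 and 12.44 with TNC + vehicle, and 10.46, 10.83 and 10.39 with TNC + TLR4i. The groups did not overlap, and the order was TNC + TLR4i, untreated, TNC + vehicle, as for Trim30d. The gene rose by 1.26 ± 0.07 with TNC, or 2.40-fold (adjusted p = 1.37e-07). With inhibitor it fell by 1.91 ± 0.10, or 3.75-fold (adjusted p = 5.25e-08). A second probe set of Trim30a gave 1.28 and -1.94, and a probe set annotated to Trim30d and Trim30a together gave 1.54 and -2.23. The 2 genes are close copies, so probes of each may bind transcripts of the other, and how the signal divides between them is uncertain.

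Trim21, a cytosolic receptor for antibody bound to viruses and a ubiquitin ligase, had log2 signals of 9.12, 9.27 and 9.29 in untreated cells. They were 10.31, 10.57 and 10.55 with TNC + vehicle and 8.90, 8.85 and 9.10 with TNC + TLR4i. The TNC + vehicle arrays stood apart by over 1 log2 unit, and the highest TNC + TLR4i array was just below the lowest untreated array. Trim21 rose by 1.25 ± 0.09 with TNC (2.37-fold, adjusted p = 7.23e-07) and fell by 1.53 ± 0.09 with inhibitor (2.88-fold, adjusted p = 1.41e-07). The second Trim21 probe set gave 1.71 and -1.97, in the same directions.

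Trim14 lacks a RING finger and acts as an adaptor of the mitochondrial antiviral protein MAVS. The log2 signals were 9.17, 9.25 and 9.26 in untreated cells, 9.76, 10.02 and 9.98 with TNC + vehicle, and 9.20, 9.19 and 9.05 with TNC + TLR4i. Untreated and inhibitor-treated cells overlapped, and TNC + vehicle lay above both. The difference was 0.69 ± 0.08 with TNC (1.62-fold, adjusted p = 4.94e-05) and -0.77 ± 0.08 with inhibitor (adjusted p = 2.36e-05). A dimmer second probe set gave 0.23 and -0.27, and with the mean of both probe sets the calls ended (0.46 and -0.52).

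Trim34a belongs to the group of genes related to the retroviral restriction factor Trim5. Its log2 signals were 7.36, 7.47 and 7.64 in untreated cells, 8.14, 8.29 and 8.09 with TNC + vehicle, and 7.44, 7.47 and 7.41 with TNC + TLR4i. The inhibitor arrays lay within the range of the untreated arrays. Trim34a rose by 0.68 ± 0.09 (1.61-fold, adjusted p = 0.000104) and fell by 0.73 ± 0.07 (adjusted p = 1.12e-05). Its second probe set gave 0.35 and -0.49, both under the fold. With the mean of its 2 probe sets the rise was 0.52, under the fold needed. The 2 probe sets shared by Trim34a and its copy Trim34b gave 0.54 and 0.63 with TNC and -0.69 and -0.90 with inhibitor.

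Trim26, a ubiquitin ligase described as acting on the interferon regulatory factor IRF3, had log2 signals of 8.11, 8.23 and 8.32 in untreated cells. The values were 8.66, 8.94 and 8.94 with TNC + vehicle and 7.95, 8.08 and 8.33 with TNC + TLR4i. TNC + vehicle lay above the other groups, which overlapped. The difference was 0.63 ± 0.09 with TNC (1.55-fold, adjusted p = 0.000315) and -0.73 ± 0.11 with inhibitor (1.66-fold, adjusted p = 0.000281). A second probe set gave 0.64 with TNC and -0.55 with inhibitor, the latter under the fold. The rise in the brightest probe set was close to the fold needed: it was 0.57 without untreated replicate 1, 0.58 without TNC + vehicle replicate 2 and 0.58 without TNC + vehicle replicate 3.

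Trim13 was the only gene called higher with TNC from outside the SPRY class. It is anchored in the endoplasmic reticulum by a transmembrane segment and takes part in the degradation of misfolded proteins there. The log2 signals were 8.09, 8.16 and 8.12 in untreated cells, 8.89, 8.92 and 9.13 with TNC + vehicle, and 8.09, 8.07 and 8.21 with TNC + TLR4i. Untreated and inhibitor-treated cells overlapped. Trim13 rose by 0.85 ± 0.08 with TNC (1.80-fold, adjusted p = 7.63e-06) and fell by 0.86 ± 0.08 with inhibitor (adjusted p = 7.69e-06).

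Trim16 differed the other way. It has no RING finger and takes part in the autophagy of damaged lysosomes. Its log2 signals were 7.78, 7.99 and 7.81 in untreated cells, 7.52, 7.26 and 7.39 with TNC + vehicle, and 8.43, 7.99 and 8.14 with TNC + TLR4i. TNC + vehicle lay below both other groups, and the lowest inhibitor array was level with the highest untreated array. Trim16 was higher with inhibitor than with TNC + vehicle by 0.80 ± 0.11 (1.74-fold, adjusted p = 0.00016). Against untreated cells its difference with TNC was -0.47 ± 0.09, which passed the adjusted p (0.00176) but not the fold. A second probe set gave -0.33 with TNC and 0.68 with inhibitor.

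**Figure D2:**
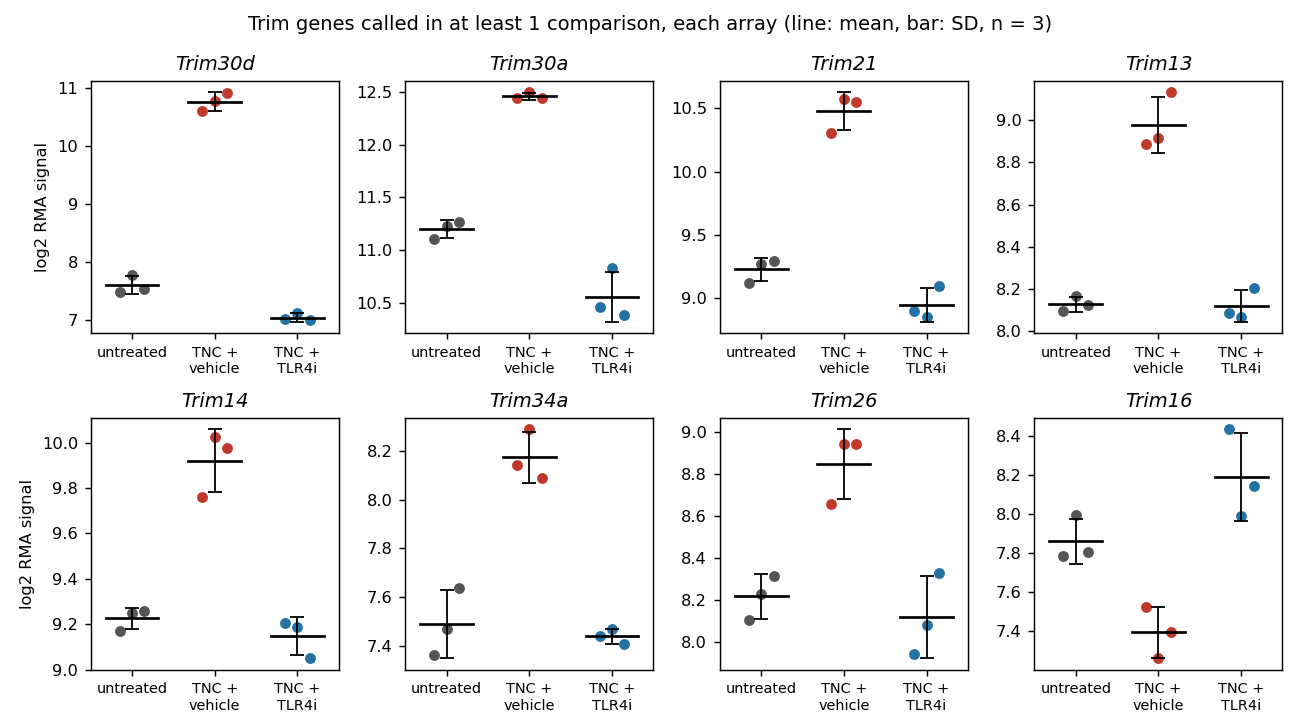
Log2 RMA signal (y axis, a different range in each panel) of the 8 Trim genes called in at least 1 comparison, by group (x axis). Each point is 1 array in the order of replicate numbers, the line is the group mean and the bar the SD (n = 3); TNC + vehicle is the highest group in 7 panels and the lowest in that of Trim16.

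With TNC + TLR4i against TNC + vehicle, 7 of 58 Trim genes were called lower (12.1%), beside 4.05% of all genes, and 1 higher (1.72%), beside 4.25%. In either direction 8.3% of all genes were called. The limma p without adjustment was below 0.05 for 12 higher and 13 lower Trim genes. With no minimum fold, 11 higher and 10 lower passed the adjusted p, beside 28.5% of all genes. The groups did not overlap for 27 Trim genes (46.6%), beside 42.2% of all genes, and the median difference was 0.01.

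Between TNC + TLR4i and untreated cells, 1 Trim gene was called lower (1.72%, beside 0.198% of all genes) and 0 higher (beside 0.0605%), with 0.258% of all genes called in either direction. The limma p without adjustment was below 0.05 for 2 higher and 3 lower Trim genes. With no minimum fold, 2 passed the adjusted p, Trim30a and Trim30d, beside 0.803% of all genes. The groups did not overlap for 9 Trim genes (15.5%), beside 15.2% of all genes. The gene called was Trim30a, which was lower by 1.56-fold (log2 difference -0.64 ± 0.10, adjusted p = 0.0125). Its second probe set gave -0.67 (adjusted p = 0.00855). The call was lost without untreated replicate 3 (adjusted p = 0.0696), without TNC + TLR4i replicate 1 (0.0809) and without TNC + TLR4i replicate 3 (0.0682). Trim30d had a log2 difference of -0.56 ± 0.08 (adjusted p = 0.00835), just under the fold. It was past the fold without untreated replicate 1 (-0.62), without untreated replicate 3 (-0.59) or without TNC + TLR4i replicate 2 (-0.60). Its second probe set gave -0.25 (adjusted p = 0.617). Trim21 had a log2 difference of -0.28 (adjusted p = 0.248). For 56 of the 57 genes not called, the 95% confidence interval lay within 1.5-fold on either side.

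Trim30a, Trim30d and Trim34a are members of a run of 10 Trim genes on chromosome 7, in the RefSeq order Trim6, Trim34a, Trim5, Trim12a, Trim34b, Trim12c, Trim30b, Trim30c, Trim30a and Trim30d. Of the 7 that were measured, 3 rose with TNC and 3 fell with inhibitor, beside 3.74% and 4.05% of all genes. Trim5 was dim in all groups, with log2 signals of 5.91, 5.86 and 5.91 untreated, 6.14, 5.85 and 5.89 with TNC + vehicle, and 5.92, 5.96 and 5.92 with TNC + TLR4i. Trim6, known for unanchored ubiquitin chains that aid the interferon response, had mean log2 signals of 6.24, 6.44 and 6.26 in the same order of groups. Trim12a had 6.59, 6.38 and 6.49, with a log2 difference of -0.21 with TNC (adjusted p = 0.0336). These signals are close to the floor, where a change could have been missed. Trim12c was bright, at 9.83, 9.92 and 9.92 untreated, 10.12, 10.17 and 9.96 with TNC + vehicle, and 9.65, 9.94 and 9.72 with TNC + TLR4i. The TNC + vehicle arrays were the highest, by a small margin, with a log2 difference of 0.19 (adjusted p = 0.098) against untreated cells and -0.31 (adjusted p = 0.0246) with inhibitor. A second Trim12c probe set gave 0.50 (adjusted p = 0.00106) and -0.63 (adjusted p = 0.000176), of which the latter is past the fold. The directions were the same in both probe sets, but the call with inhibitor differed.

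The windows of these Trim5 relatives also hold the response element letters and are shown because they nearly share 1 sequence while no brightest probe set of the 3 genes was called.
Trim5 (chr7:104288101-104288200, minus strand): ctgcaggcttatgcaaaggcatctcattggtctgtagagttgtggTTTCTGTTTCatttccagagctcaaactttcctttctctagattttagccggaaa
Trim12a (chr7:104315466-104315565, minus strand): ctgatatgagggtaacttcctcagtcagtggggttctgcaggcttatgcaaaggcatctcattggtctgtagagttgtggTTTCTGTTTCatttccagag
Trim12c (chr7:104353324-104353423, minus strand): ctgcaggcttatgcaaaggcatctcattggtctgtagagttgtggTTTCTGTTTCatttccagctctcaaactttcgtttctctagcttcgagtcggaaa
Over the positions compared around the match, Trim5 and Trim12a had the same letter at 65 of 65 and Trim5 and Trim12c at 93 of 100. The fourth such gene without a call was Trim2, whose match lay in 1 of its windows.

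**Figure D3:**
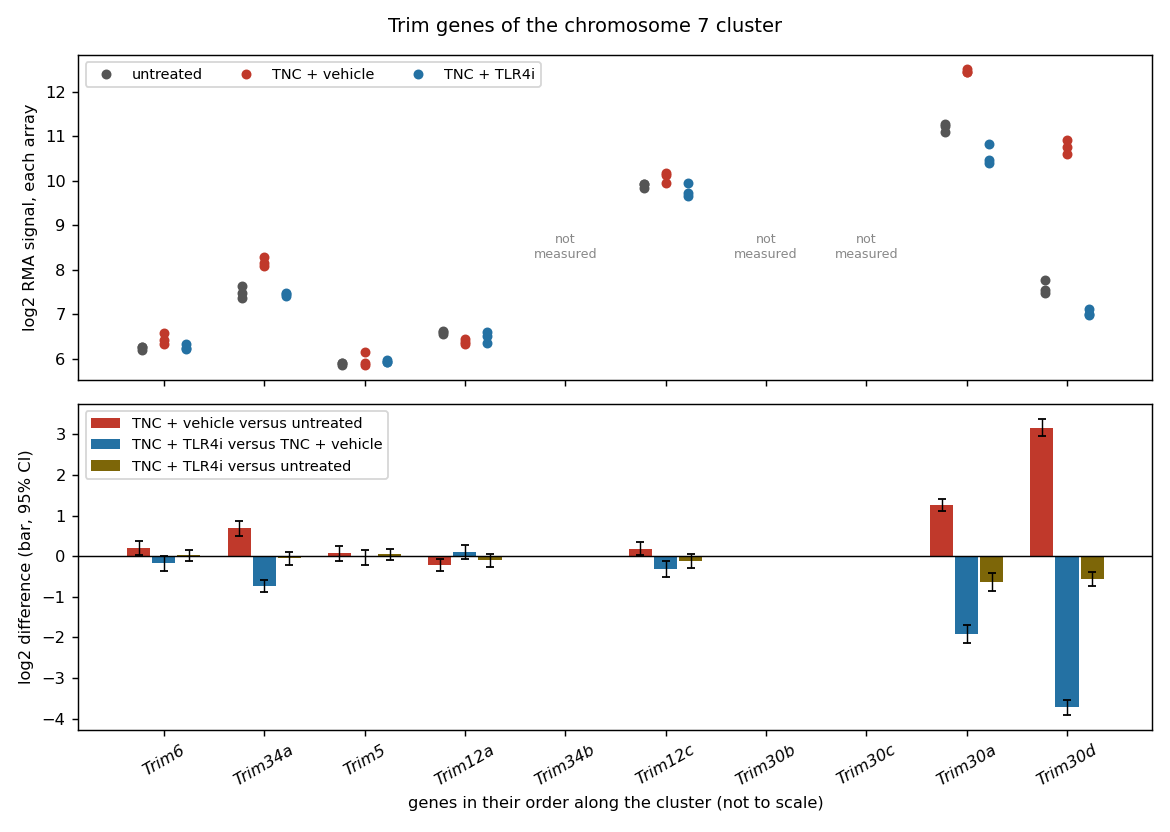
Trim genes of the chromosome 7 cluster in their order along it (x axis, not to scale). The upper panel shows the log2 RMA signal of each array (3 a group) and the lower panel the log2 difference with its 95% confidence interval in the 3 comparisons; Trim34a, Trim30a and Trim30d rose with TNC and fell with inhibitor, the other 4 measured genes were not called, and 3 genes were not measured.

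Of the 12 measured Trim genes listed as interferon-induced, 6 rose with TNC and 6 fell with inhibitor, with median log2 differences of 0.51 and -0.59. Over all genes, 3.74% were called higher with TNC and 4.05% lower with inhibitor, with medians of 0.006 and 0.002. Apart from the dim genes above and Trim12c, the 2 members not called were Trim25 and Trim56. Trim25, the ligase that ubiquitinates the RNA sensor RIG-I, had log2 signals of 11.41, 11.51 and 11.48 untreated, 11.77, 11.83 and 11.98 with TNC + vehicle, and 11.40, 11.46 and 11.40 with TNC + TLR4i. TNC + vehicle did not overlap the other groups. The log2 differences of 0.39 (adjusted p = 0.00209) and -0.44 (adjusted p = 0.00077) passed the adjusted p and not the fold. Of its 2 other probe sets, 1 with mean signals of 7.88, 8.52 and 7.85 passed both (0.64 and -0.67), and 1 with 11.28, 11.55 and 11.16 did not pass the fold (0.27 and -0.39). Trim56, which acts in antiviral signalling, had 8.70, 8.81 and 8.65 untreated, 9.02, 9.03 and 9.09 with TNC + vehicle, and 8.56, 8.54 and 8.67 with TNC + TLR4i. TNC + vehicle was again above every other array, and the differences were 0.33 (adjusted p = 0.0045) and -0.46 (adjusted p = 0.000349).

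By the domain after the coiled coil, the calls lay in the PRY-SPRY or SPRY class and the transmembrane class. In the SPRY class, 6 of 30 measured genes rose with TNC, and with inhibitor 6 fell and Trim16 rose. Over all genes, 3.74% were called higher with TNC, and with inhibitor 4.05% were lower and 4.25% higher. The median log2 difference of the class was 0.03 with TNC and -0.01 with inhibitor, close to that of all genes. In the transmembrane class, Trim13 was called and Trim59 was not. None of the 7 genes of the COS box class, which binds microtubules, was called, nor any of the 5 with NHL repeats or a filamin domain and the 7 with no further named domain. The COS box class was dim, with a mean log2 signal of 6.29 to 6.42 on the arrays, so a change there could have been missed. Whether the classes differ was not tested.

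Smaller differences ran in the opposite direction. With TNC, 10 Trim genes had a negative difference that passed the adjusted p but not the fold, Trim16 among them. In either direction and at any fold, 19 of the 58 Trim genes passed the adjusted p, beside 28.1% of all genes. The share of all genes that were lower in this way was not counted. Trim47 had the largest difference, with log2 signals of 8.74, 8.77 and 8.64 untreated, 8.23, 8.21 and 8.13 with TNC + vehicle, and 8.70, 8.65 and 8.82 with TNC + TLR4i. TNC + vehicle was below every other array, and the differences were -0.52 ± 0.07 (adjusted p = 0.000139) and 0.53 ± 0.07 (adjusted p = 0.000157). Trim37, a ligase with a MATH domain at centrosomes and peroxisomes, had differences of -0.37 (adjusted p = 0.00122) and 0.52 (adjusted p = 0.000203). Trim2, a ligase of neurons, had -0.41 and 0.38 in its brightest probe set, while its 5 other probe sets gave -0.16 to 0.10 with TNC.

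The PHD finger and bromodomain class holds chromatin-bound corepressors. Trim28, the corepressor of KRAB zinc finger proteins, had log2 signals of 10.90, 10.98 and 10.98 untreated, 10.69, 10.67 and 10.69 with TNC + vehicle, and 11.02, 10.94 and 10.95 with TNC + TLR4i. TNC + vehicle lay below the others on every array, by -0.27 ± 0.06 against untreated cells (adjusted p = 0.00837). A second Trim28 probe set gave -0.16 with TNC (adjusted p = 0.14) and 0.26 with inhibitor (adjusted p = 0.0155). Trim24, a coregulator of nuclear receptors, had -0.36 (adjusted p = 0.00483) with TNC and 0.36 (adjusted p = 0.00564) with inhibitor. The dimmer Trim24 probe sets disagreed, with 0.15 (adjusted p = 0.457) and -0.34 (adjusted p = 0.00372) with TNC. With inhibitor they gave -0.15 (adjusted p = 0.405) and 0.20 (adjusted p = 0.0645). Trim33, a partner of SMAD proteins, had -0.12 (adjusted p = 0.374) and 0.12. The class of 4 had a median of -0.19 with TNC and 0.20 with inhibitor, and none was called.

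The other differences of this kind were smaller. Trim41 had -0.36 (adjusted p = 0.00369) and 0.26, and Trim35 had -0.23 (adjusted p = 0.0341) and 0.30. Dimmer Trim35 probe sets gave -0.07 (adjusted p = 0.684) and -0.24 (adjusted p = 0.057) with TNC. Trim32, a ligase mutated in a limb-girdle muscular dystrophy, had -0.26 (adjusted p = 0.0465) and 0.17 (adjusted p = 0.154), with overlapping groups. With inhibitor, Trim27 (0.24), Trim65 (0.27) and Trim59 (0.28) also passed the adjusted p and not the fold. Other Trim27 probe sets gave -0.02 to 0.21, and the second Trim59 probe set gave 0.14 (adjusted p = 0.195). Trim8, which acts in cytokine and NF-kB signalling, was not called, with mean log2 signals of 9.14, 9.05 and 9.06. The muscle members Trim54, Trim63 (MuRF1, which drives muscle protein loss) and Trim72 (a membrane repair protein) had means of 5.82 to 6.50 in every group, close to the floor.

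In all, 51 Trim genes were not called with TNC, with log2 differences from -0.52 to 0.39, and for 49 of them the 95% confidence interval lay within 1.5-fold on either side. With inhibitor against TNC + vehicle, 50 were not called (-0.46 to 0.53), and for 46 the interval lay within that range.

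**Figure D4:**
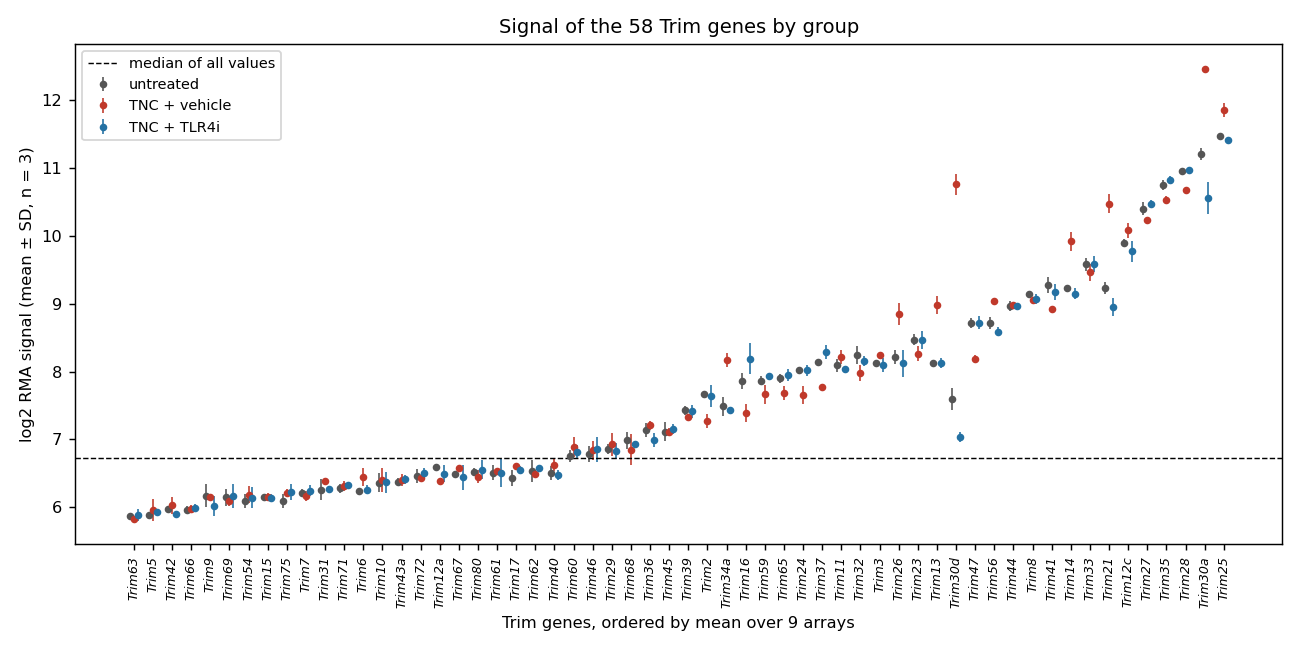
Mean log2 RMA signal ± SD (y axis, n = 3) of the 58 Trim genes in the 3 groups, ordered by their mean over 9 arrays (x axis), with the median of all values (6.73) as a dashed line. Probe sets differ in brightness, so the order is no order of transcript amounts; the 7 genes called higher with TNC all lie in the right part, above the line.

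Genes that work with the family were read the same way. For the lists below, the shares over all genes were 3.74% higher with TNC, 4.05% lower with inhibitor and 0.198% lower with TNC + TLR4i than untreated. Of 10 measured TRIM proteins with other symbols, 4 rose with TNC and the same 4 fell with inhibitor. They were Mefv (pyrin, 1.55 and -1.58), Pml (the organiser of nuclear bodies, 1.08 and -1.37), Rnf135 (Riplet, a ligase of RIG-I, 0.96 and -0.92) and Mid1 (a microtubule-bound ligase, 0.67 and -0.68). Of 14 measured genes of RNA and DNA sensing, 10 rose with TNC and 9 fell with inhibitor, with median log2 differences of 1.15 and -1.28. Among them, the RIG-I gene Ddx58 rose by 1.42, Ifih1 (MDA5) by 1.94, Dhx58 by 1.74, Zbp1 by 2.11 and Ifi204 by 1.61. The adaptor gene Mavs was not called (-0.47). Against untreated cells, Ifi204 (-0.83) and Dhx58 (-0.78) were lower with TNC + TLR4i.

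The interferon pathway list had 10 of 16 measured genes higher with TNC (median 1.62) and 10 lower with inhibitor (median -2.02). Over all genes these shares were 3.74% and 4.05%. The largest rises were those of Gbp2 (3.57), Mx1 (2.91), Rsad2 (2.60) and Ifit1 (2.55). Here 6 were also lower with TNC + TLR4i than in untreated cells (median -0.46), led by Ifit2 (-1.33) and Ifit1 (-1.32), the comparison in which Trim30a was lower. Ifnb1 itself was dim, with mean log2 signals of 6.37, 6.55 and 6.31. Of 16 TLR4 pathway genes, Myd88 (0.80) and Nfkbia (0.76) rose with TNC, 3 fell with inhibitor and the others were not called, Tab2 among them. Of 10 ubiquitin-conjugating enzymes and partners, 1 was called: Ube2l6, which also conjugates ISG15, rose by 1.32 and fell by 1.36.

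Of 12 endothelial markers, 1 rose with TNC (Kdr, by 1.63), and 2 fell with inhibitor (Kdr, -1.96, and Cdh5, -0.63). The mean log2 signal of the list was 6.91 to 6.92 on untreated arrays, 7.11 to 7.71 with TNC + vehicle and 6.84 to 6.86 with TNC + TLR4i. TNC + vehicle replicate 1 was the highest, with Cldn5 at 7.72 beside 6.58 and 6.54 in replicates 2 and 3, and Emcn at 7.41 beside 6.19 and 6.28. Against the rise of the list with TNC, Vwf had log2 differences of -0.34 (adjusted p = 0.0677) with TNC and 0.46 (adjusted p = 0.0124) with inhibitor. The part of these markers in the Trim results was not tested. Without TNC + vehicle replicate 1, 7 Trim genes were called higher with TNC and 7 lower with inhibitor, as with all arrays. The list mean was above the untreated arrays in replicates 2 and 3 as well, so this count does not test that part. In those replicates Kdr was 9.58 and 9.59, beside 7.63 to 7.84 on untreated arrays. Pecam1 and Cldn5 lay within their untreated range there, while Eng and Plvap lay above theirs. Fibroblast markers had a mean log2 signal of 9.14 to 9.58 on the arrays, with 0 of 8 called. The list was uneven. In untreated cells Col1a2 had 13.28, Col3a1 11.99, and Col1a1, Dcn, Pdgfrb and Pdgfra 8.67 to 9.54. Lum had 6.49 and Thy1 6.28. No T cell, B cell, NK cell, neutrophil, muscle or neuron marker was called. Of the 10 macrophage markers, 2 rose with TNC (Msr1, 2.09, and Fcgr1, 0.94). With inhibitor 3 fell (Msr1, -2.35, Fcgr1, -1.15, and Cd14, -0.61). The mean log2 signal of that list was 12.14 to 12.19 on untreated arrays, 12.43 to 12.51 with TNC + vehicle and 12.04 to 12.11 with TNC + TLR4i.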

How the data were processed

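RNA of 9 arrays was analysed. The authors normalized the Affymetrix arrays by RMA in Chipster and deposited log2 values for 45101 probe sets. RMA corrects background and equalises the distributions of all arrays, so differences are relative. Array medians were 6.72 to 6.74, and the number of arrays limits the precision. After 64 array controls were left out, 45037 probe sets were tested with limma 3.58.1 in R 4.3.3 (two-sided, 6 arrays a comparison, no covariate, Benjamini-Hochberg over all probe sets), after testing on simulated data. GEO's platform annotation gave 34945 probe sets 1 gene, 932 several and 9160 none; no Trim symbol changed through its gene ID. Some probe sets (names ending in _s_at or _x_at) can bind related transcripts.

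Members and lists were chosen with earlier results of these data known. Named were all called Trim genes, a list of known members, the 3 nearest misses with TNC and the largest called changes of each other list; Trim37, Trim41, Trim65 and uncalled genes of other lists were added after their values were seen. Alternatives covered the fit, normalization, filter, probe set choice, thresholds and each array left out. Motifs were searched with Python 3.11.15.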

Additional observations from a re-analysis of the deposited data

How the results depend on the processing

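Of 16 called values, 11 kept their call under every alternative other than a minimum fold of 2, and none changed direction. A 1-fit analysis of all 9 arrays, array weights, centred medians, cyclic loess, a trended robust variance and leaving out dim probe sets changed no count of called Trim genes. Averaging the probe sets of each gene gave 5 genes higher with TNC and 6 lower with inhibitor. With no minimum fold, 10 Trim genes were lower with TNC (0 otherwise), 11 were higher with inhibitor than with TNC + vehicle (1 otherwise) and 2 were lower with TNC + TLR4i than untreated (1 otherwise). At a minimum fold of 2, 3 were higher with TNC and 3 lower with inhibitor (7 otherwise), 0 were higher with inhibitor and 0 lower with TNC + TLR4i than untreated. At an adjusted p under 0.01, 0 were lower with TNC + TLR4i than untreated. The causes were not tested, beyond what the thresholds set by their construction.

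Leaving out 1 array at a time gave 6 to 7 genes higher and 0 to 0 lower with TNC, 1 to 1 higher and 7 to 7 lower with inhibitor, and 0 to 0 higher and 0 to 2 lower with TNC + TLR4i than untreated. The genes behind these ranges are Trim26, Trim30a and Trim30d. With the replicate number as a block, 7 genes were higher and 0 lower with TNC, 1 higher and 7 lower with inhibitor, and 0 higher and 1 lower with TNC + TLR4i than untreated; correlations of same-numbered arrays were -0.10 to 0.14, so the numbers were not taken as pairs. Signal near the floor limits what could be called among the 23 dim members.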
